A study of Mus musculus with 3 samples.

Results

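Hedgehog signalling was followed through 8 genes: the ligands Shh and Ihh, the receptor Ptch1, the transducer Smo, the transcription factors Gli1, Gli2 and Gli3, and the ligand-binding inhibitor Hhip. The genes were taken by symbol from the feature lists, in which all 8 were found in each of the 3 libraries, out of 46675 symbols listed over the libraries. The data are single-cell RNA libraries of the hindstomach, the glandular part of the stomach, of mouse embryos at embryonic day 18.5. Each genotype gave 1 library: Shh-Cre (control, 6931 cells kept), Shh-Cre;YAP5SA (YAP5SA, 8512 cells) and Shh-Cre;YaploxP/loxP (YapKO, 4892 cells). YAP5SA is a form of the transcriptional coactivator YAP in which serines phosphorylated by LATS kinases are replaced by alanine, so that Hippo signalling restrains it less.

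All 3 groups carry Shh-Cre, so no library comes from animals without it. Shh-Cre alters cells with past or present Shh transcription and their descendants, which in the gut are mainly epithelial. The stroma is thus not the intended target, and recombination was not measured in any cell class. A widely used Shh-Cre line is a knock-in that disrupts a copy of Shh, and the labels do not say which line was used, nor the promoter of YAP5SA, the number of embryos or whether they were pooled. Effects of that allele are shared by the 3 libraries and cannot be told apart from the rest of the Shh values.

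Shh and Ihh are secreted by gut epithelium and received mainly by the mesenchyme below it. In the absence of ligand PTCH1 holds SMO inactive, and ligand binding releases SMO, which lets GLI2 act as activator and limits the repressor form of GLI3. Gli1, Ptch1 and Hhip are transcribed in response to the pathway, so they are commonly read as its output, while PTCH1 and HHIP also bind ligand and limit its reach.

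Cells were assigned to classes by marker genes (a gate): 8 epithelial genes such as Epcam and Krt8, 8 fibroblast genes such as Col1a1 and Dcn, and 8 smooth muscle genes such as Myh11 and Actg2. The epithelial gate held 624, 1686 and 765 cells in the control, YAP5SA and YapKO libraries, the fibroblast gate 2778, 2572 and 514, and the muscle gate 811, 574 and 768. The summed level of the fibroblast markers in the fibroblast gate was 32946, 23175 and 20471 CPM, the usual depth-scaled count of single-cell data, and that of the muscle markers in the muscle gate was 65185, 73724 and 50129 CPM. The epithelial markers summed to 8171, 15953 and 8558 CPM in the epithelial gate and to 181, 835 and 254 CPM in the fibroblast gate. No defining marker was at 0 in its own gate. No gate was given to 1226, 1192 and 1139 cells. The gates are ranges of a score, and 164, 113 and 298 cells with the epithelial score highest lay within 0.25 of a limit, inside or outside the gate, as did 540, 698 and 176 for the fibroblast and 199, 154 and 218 for the muscle score. Levels below are the UMIs (unique molecules) of a gene summed over a gate's cells and scaled to CPM of that gate, with exact 95% Poisson intervals that cover counting error only. Because droplets also hold free RNA, each level is set beside the immune gate (450, 1460 and 523 cells), taken here as cells that should lack the 8 genes. Fibroblast markers summed to 6911, 3236 and 877 CPM in that gate, so free stromal RNA was highest in the control library.

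With 1 library a genotype there was no replicate check and no test between genotypes, and no p-value is given. The same labelled class did not always hold the same transcriptome cluster. Most control and YapKO fibroblast-gate cells lay in cluster 0 (2685 and 367 cells, led by Clec3b, Dpt and Spon2), and most YAP5SA fibroblast-gate cells in cluster 1 (2451 cells, led by Tac2, Notum and Thbs4). The YapKO fibroblast gate also held 73 cells (14.2% of 514) of cluster 5, pericyte-like by its markers, and 43 (8.37%) of cluster 2, like interstitial cells of Cajal, against 24 and 7 of 2778 control cells and 10 and 17 of 2572 YAP5SA cells. Muscle-gate cells lay mainly in cluster 12 in the control and YAP5SA libraries (693 and 498 cells) and in cluster 13 in YapKO (651 cells). Epithelial-gate cells lay mainly in cluster 11 in the control and YapKO (477 and 542 cells) and in cluster 8 in YAP5SA (1460 cells, led by Ankrd1, Cldn6, Wfdc2, Clu and Mmp7). Both comparisons use the same control library.

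The bases before the start are shown for 4 of the genes, for these reasons. Ihh had the largest difference between libraries among members at 20 CPM or more. Ptch1 and Hhip are known GLI targets whose levels are described below. Smo is the only gene with the TEAD core among the 6 windows searched. The windows are RefSeq sequences of build GRCm38.p6, matched by symbol for 6 of the 8 genes, and Shh and Gli1 had no entry. Each window holds the 250 bases before the annotated start, 5′ to 3′ on the gene's strand. The data themselves are on GRCm39. The GLI motif GACCACCCA and the TEAD core CATTCC were searched on both strands, the GLI motif also with at most 1 mismatch. Capitals mark the only match in the 6 windows, CATTCC before Smo. GACCACCCA was in 0.225% of the 32851 windows of the table, its form with 1 mismatch in 5.79%, and CATTCC in 12.6%.
Ihh, chr1:74951673-74951922, minus strand: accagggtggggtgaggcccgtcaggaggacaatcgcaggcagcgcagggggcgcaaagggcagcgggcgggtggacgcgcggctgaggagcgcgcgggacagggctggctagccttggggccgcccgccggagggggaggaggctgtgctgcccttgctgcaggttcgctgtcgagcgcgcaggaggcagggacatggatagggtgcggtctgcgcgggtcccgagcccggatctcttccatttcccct
Ptch1, chr13:63565736-63565985, minus strand: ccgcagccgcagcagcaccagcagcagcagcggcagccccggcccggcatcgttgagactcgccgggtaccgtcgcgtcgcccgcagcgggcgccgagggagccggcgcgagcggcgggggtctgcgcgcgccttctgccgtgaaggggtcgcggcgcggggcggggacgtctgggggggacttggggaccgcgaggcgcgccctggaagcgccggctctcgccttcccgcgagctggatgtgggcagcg
Smo, chr6:29735247-29735496, plus strand: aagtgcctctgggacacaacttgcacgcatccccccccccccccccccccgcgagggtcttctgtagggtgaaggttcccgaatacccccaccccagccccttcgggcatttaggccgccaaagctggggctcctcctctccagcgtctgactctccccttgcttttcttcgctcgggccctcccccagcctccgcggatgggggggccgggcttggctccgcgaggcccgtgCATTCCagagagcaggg
Hhip, chr8:80058009-80058258, minus strand: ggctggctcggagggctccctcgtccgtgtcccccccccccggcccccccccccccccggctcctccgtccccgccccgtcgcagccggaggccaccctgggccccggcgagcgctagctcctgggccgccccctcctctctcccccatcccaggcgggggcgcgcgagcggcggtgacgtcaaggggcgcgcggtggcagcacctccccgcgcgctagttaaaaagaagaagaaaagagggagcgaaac
The Ptch1 and Hhip windows were 78.4% and 76% G and C, against a median of 52.4% over the table, and held 41 and 28 CG pairs against a median of 6. A missing match says only that these letters are not in this window.

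Ihh, a ligand of the gut epithelium, was lower in YAP5SA and, as a sum over cells, close to the control in YapKO. Its level in the epithelial gate was 79.2 CPM in the control (70.5 to 88.7, 299 UMIs), 15.4 CPM in YAP5SA (13.6 to 17.3, 263 UMIs) and 75.7 CPM in YapKO (69.2 to 82.5, 509 UMIs). YAP5SA was the low library, and the control and YapKO intervals overlapped. Ihh was thus 5.15-fold lower in YAP5SA than in the control (95% interval 4.35 to 6.10). The ratio of YapKO over control was 0.955 (0.827 to 1.11). Ihh UMIs were found in 29.8% of control epithelial-gate cells (exact binomial interval 26.2 to 33.6), 9.37% of YAP5SA cells (8.02 to 10.9) and 26.5% of YapKO cells (23.4 to 29.8). Median depths were 3530, 6579 and 4297 UMIs a cell, so the low share was in the deepest library. With each cell thinned to 1500 UMIs, which left out 105, 131 and 97 shallower cells, the shares were 12.3%, 2.12% and 9.58%. The YapKO ratio was 0.713 (0.504 to 1.01) in thinned cells and 0.665 as a mean over cells of each cell's CPM. In the immune gate Ihh stood at 4.14, 1.90 and 1.87 CPM, in 2.44%, 1.10% and 1.34% of cells at median depths of 4769.5, 4557.5 and 6669 UMIs, so the epithelial level exceeded this background 19.1-fold, 8.07-fold and 40.5-fold.

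Within the epithelium, Ihh differed between the marker-defined subclasses, and few YAP5SA cells fell into the gastric ones. Control cells with pit markers (Gkn1, Gkn2, Tff1 and Muc5ac, the surface mucous set) had 108 CPM of Ihh (83.6 to 137, 148 cells), and those with neck and chief markers (such as Muc6 and Tff2) had 86.9 CPM (72.6 to 103, 201 cells). YapKO gave 116 CPM (98.3 to 135, 159 cells) and 70.6 CPM (59.6 to 83.1, 205 cells) for the same subclasses. Parietal-like cells, the acid-secreting type, were lower, at 18.5 CPM in the control (6.01 to 43.2, 28 cells) and 8.19 CPM in YapKO (2.66 to 19.1, 62 cells). In YAP5SA, 34 cells carried neck and chief markers, and their Ihh level was 145 CPM (95.4 to 211, 27 UMIs), not below that of the same subclass in the control. Its 15 cells with intestinal markers had 89.7 CPM (46.3 to 157, 12 UMIs). The 1415 YAP5SA cells without a subclass had 13.9 CPM (12.1 to 16.0) and its 218 squamous-like cells 8.72 CPM (5.4 to 13.3). Cells without a subclass in the control (221) and YapKO (292) had 76.9 and 82.2 CPM. The subclasses differ in size between libraries because their markers do, and the part of this in the Ihh difference was not tested.

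**Figure D1:**
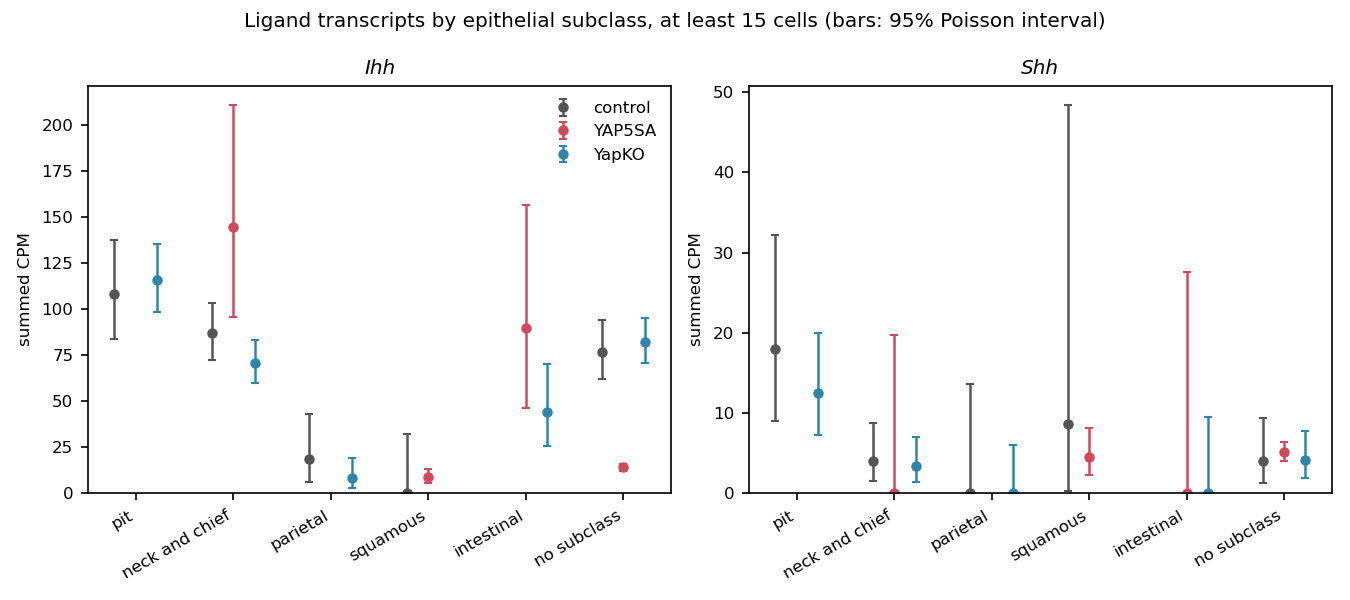
Summed CPM of Ihh and Shh (y axes, linear) in epithelial subclasses (x axis) of the 3 libraries, with 95% Poisson intervals, for subclasses with at least 15 cells in a library. Ihh of the YAP5SA cells without a subclass (13.9 CPM) and with squamous markers (8.72 CPM) lies far below the control pit and neck and chief values, while the 34 YAP5SA neck and chief cells are at 145 CPM.

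Shh, the ligand whose gene also drives the Cre, was sparse in every library. The epithelial gate held 23, 84 and 33 Shh UMIs, or 6.09 (3.86 to 9.14), 4.91 (3.92 to 6.08) and 4.91 CPM (3.38 to 6.89) in the control, YAP5SA and YapKO. The 3 intervals overlapped. The ratio was 0.806 (0.503 to 1.34) for YAP5SA and 0.805 (0.459 to 1.44) for YapKO, so a difference of up to about that size in either direction was not detectable at this depth. Shares of cells with a UMI were 3.21%, 4.15% and 3.79%, against 0.889%, 0.342% and 0.191% of immune-gate cells. Pit-like cells had 18.0 CPM in the control (8.99 to 32.2, 11 UMIs) and 12.4 CPM in YapKO (7.25 to 19.9, 17 UMIs), and neck and chief cells 4.04 CPM (1.48 to 8.80) and 3.39 CPM (1.36 to 6.98). The pit interval lay above that of neck and chief cells in both libraries. No Shh UMI was seen in the 28 control and 62 YapKO parietal-like cells, which allows up to 10.7% and 4.84% of cells with a UMI. In YAP5SA the cells without a subclass, where Ihh was low, had 5.09 CPM of Shh (3.99 to 6.4), and the same cells of the control 4.003 CPM (1.3 to 9.34), with overlapping intervals.

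Ptch1, which codes for the Hedgehog receptor and is itself a pathway target, was above the immune level in the stroma of all 3 libraries and highest in the YapKO fibroblast gate, which also held the most cells of pericyte-like and Cajal-like clusters. Fibroblast-gate Ptch1 was 49.2 CPM in the control (45.8 to 52.7), 36.8 CPM in YAP5SA (33.8 to 39.9) and 117 CPM in YapKO (105 to 129). The intervals of the 3 libraries did not overlap, with YapKO highest and YAP5SA lowest. The ratio over control was 0.748 (0.671 to 0.833) in YAP5SA and 2.38 (2.09 to 2.69) in YapKO. Among the fibroblast-gate cells that lay in clusters 0 and 1 (2704, 2515 and 369 cells), Ptch1 was 47.8, 35.6 and 79.5 CPM, and the YapKO ratio was 1.66 (1.41 to 1.96). Immune-gate Ptch1 was 25.2, 15.6 and 11 CPM, so the fibroblast level was 1.95, 2.36 and 10.7 times it. With that level subtracted, the YAP5SA ratio was 0.884 and the YapKO ratio 4.42. In the muscle gate Ptch1 was 58.5 CPM (53.3 to 64.1), 37.3 CPM (32.1 to 43.1) and 59.3 CPM (54.1 to 64.8), with only the YAP5SA library apart from the others. The muscle ratios were 0.638 (0.535 to 0.758) for YAP5SA and 1.01 (0.889 to 1.15) for YapKO, the latter 1.45 after the immune level was subtracted. Epithelial-gate Ptch1, at 22.2, 15.3 and 15.8 CPM, was 0.883, 0.980 and 1.44 times the immune level (intervals 0.633 to 1.24, 0.794 to 1.21 and 1.01 to 2.07). Ptch1 was not particular to fibroblasts and muscle. Control Ptch1 was 50.7 CPM in the endothelial gate, 46.1 CPM in enteric glia and 38.9 CPM in enteric neurons. Their YAP5SA ratios over control were 0.464 (0.317 to 0.668), 0.639 (0.328 to 1.18) and 0.796 (0.482 to 1.28). The YAP5SA ratio was 0.686 (0.534 to 0.888) in the epithelial and 0.618 (0.458 to 0.840) in the immune gate.

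The YapKO fibroblast value was carried to a large part by a small group of cells. The YapKO fibroblast subcluster with the highest Ptch1 level was taken, so its high share of Ptch1 follows from the choice. This subcluster of 79 cells, 15.4% of the 514, held 47.7% of the Ptch1 UMIs. Its leading genes were Saa3, Col6a4, Fam162b, Adamdec1 and Dach1. Of these cells 65 (82.3%) lay in the pericyte-like cluster 5 and 9 in cluster 0. It had 308 CPM of Ptch1, 129 CPM of Gli1, 40.8 CPM of Hhip and 427 CPM of Bmp4, a BMP ligand of the gut stroma, while the other 435 cells had 74.6, 33.2, 4.69 and 239 CPM. The fibroblast markers summed to 13937 CPM in the 79 cells and 21912 CPM in the other 435, the 7 pericyte markers to 558 and 475 CPM, the muscle markers to 4905 and 2678 CPM and the Cajal cell markers to 227 and 157 CPM. The pericyte markers did not differ in 1 direction between the 79 cells and the other 435. Notch3 (131 against 64.9 CPM), Cspg4 (105 against 51.6), Ndufa4l2 (137 against 68.4) and Higd1b (1.77 against 0.391) were higher in the 79 cells. Rgs5 (76.2 against 116 CPM), Kcnj8 (72.7 against 82.5) and Abcc9 (35.5 against 91.4) were lower in them. In the whole gate the pericyte sum was 463, 395 and 490 CPM in the control, YAP5SA and YapKO, and that of the Cajal cell markers 104, 156 and 170 CPM. The part of these cells in the YapKO values was not tested beyond leaving them out. The other YapKO fibroblast subclusters ranged from 58.2 to 97.3 CPM of Ptch1, and those of the control from 30.8 to 99.4 CPM. The 79 cells were thus chosen by Ptch1 after the values were seen. Without them the YapKO ratio over control was 1.52 (1.29 to 1.78) for Ptch1 and 0.502 (0.398 to 0.626) for Gli1. With them the ratios were 2.38 and 0.764. A fall of the Ptch1 ratio was fixed by this choice, and the control kept all its subclusters, up to 99.4 CPM. Within clusters 0 and 1 the other YapKO ratios were 1.35 (1.18 to 1.53) for Gli3, 1.06 (0.851 to 1.30) for Gli2, 0.960 (0.577 to 1.52) for Hhip and 0.884 (0.757 to 1.03) for Smo. Malat1, a nuclear RNA, was also higher in the YapKO fibroblast gate, at 2913 CPM against 995 in the control and 907 in YAP5SA, and in the YapKO muscle gate (3199 against 1456 and 1299 CPM). The YapKO epithelial gate (2333 against 1243 and 1460 CPM) and endothelial gate (2242 against 1092 and 979 CPM) had more Malat1 too. Its immune-gate levels were 920, 1147 and 1096 CPM in YapKO, control and YAP5SA. The part of this difference in the YapKO values was not tested.

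Scaling matters for the YapKO fibroblast gate. Factors from edgeR's trimmed mean of M-values (TMM) moved all its ratios by 0.39 on the log2 scale (1.31-fold) and those of the YapKO muscle gate by 0.11. Relative to TMM the YapKO fibroblast ratios were 1.81 for Ptch1, 1.05 for Gli3, 0.908 for Gli2, 0.878 for Hhip, 0.675 for Smo and 0.583 for Gli1. Gli2 and Hhip changed sides of 1 (from 1.19 and 1.15), and Ptch1 no longer stood 2-fold apart.

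**Figure D2:**
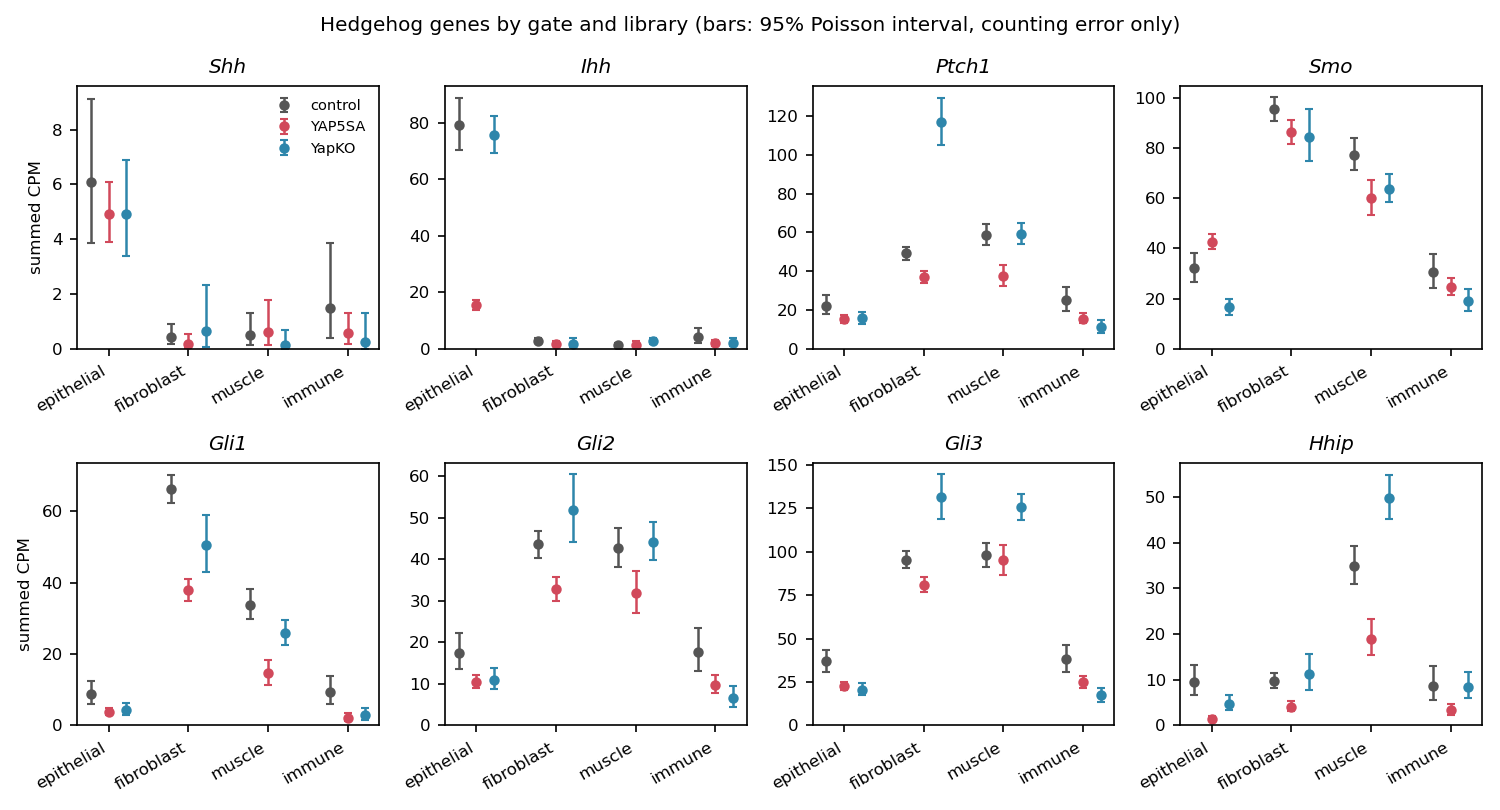
Summed CPM of the 8 genes (y axes, linear, each with its own range) in the epithelial, fibroblast, muscle and immune gates of the 3 libraries, with 95% Poisson intervals. Ihh is low in the YAP5SA epithelium (15.4 CPM), Gli1 is highest in control fibroblasts (66.2 CPM), Ptch1 stands out in the YapKO fibroblast gate (117 CPM), and Hhip is highest in the muscle gate.

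Smo, the membrane protein that passes the signal on, had in fibroblasts the ratio nearest to 1 among the 5 members at 20 CPM or more in YAP5SA, 0.903 (0.839 to 0.972). Its fibroblast-gate levels were 95.5 (90.8 to 100.4), 86.3 (81.8 to 91.0) and 84.5 CPM (74.6 to 95.4), and the intervals of YAP5SA and YapKO overlapped that of the control. The muscle gate had 77.4 (71.4 to 83.8), 59.9 (53.3 to 67.1) and 63.8 CPM (58.4 to 69.5), with the control above both others. In the epithelium Smo was 32.0 CPM (26.6 to 38.3), 42.7 CPM (39.6 to 45.9) and 16.5 CPM (13.6 to 19.9). These were 1.05, 1.72 and 0.863 times the immune level, so an excess over free RNA was measured in YAP5SA (1.48 to 2.01) and not in the other libraries. The epithelial ratio was 1.33 for YAP5SA (1.10 to 1.63) and 0.515 for YapKO (0.394 to 0.672), the immune-gate ratios being 0.812 (0.627 to 1.06) and 0.628 (0.456 to 0.864).

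Gli1, the transcription factor gene that itself reports pathway activity, was lower in the YAP5SA stroma than in the control. Its fibroblast-gate level was 66.2 CPM in the control (62.3 to 70.3, 1074 UMIs), 37.9 CPM in YAP5SA (34.9 to 41.1, 600 UMIs) and 50.6 CPM in YapKO (43.0 to 59.1, 158 UMIs). The 3 intervals were apart, with the control highest. The order of YAP5SA and YapKO turned with the cells taken. YapKO had 33.2 CPM without the 79 cells, which were chosen by their Ptch1 level. It had 34.5 against 35.7 CPM with clusters in place of the gate and 36.0 against 37.4 CPM within clusters 0 and 1. With TMM factors the ratios over control were 0.580 in YAP5SA and 0.583 in YapKO. The fold was 1.75 lower in YAP5SA (1.58 to 1.93) and 1.31 lower in YapKO (1.11 to 1.56). The muscle gate had 33.9 CPM (29.9 to 38.2), 14.5 CPM (11.4 to 18.3) and 25.9 CPM (22.5 to 29.6), with YAP5SA lowest. Muscle Gli1 was 2.33-fold lower in YAP5SA (1.79 to 3.07). For YapKO the ratio was 0.765 (0.636 to 0.920), 0.945 after the immune level was subtracted and 1.28 in thinned cells, where it rested on 36 and 29 UMIs (0.763 to 2.16). For YAP5SA the muscle ratio in thinned cells was 0.687 (0.336 to 1.34, on 14 and 29 UMIs). The immune gate itself had 9.40, 2.13 and 2.80 CPM. With that level subtracted the YAP5SA ratio was 0.630 in fibroblasts and 0.507 in muscle. Gli1 was found in 26.8%, 17.8% and 19.5% of fibroblast-gate cells, and in 9.52%, 5.84% and 6.26% of them after thinning, against 5.56%, 1.23% and 2.29% of immune-gate cells before it.

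Gli2, the main activator, was lower in YAP5SA, and Gli3, the main repressor, was higher in YapKO. Fibroblast Gli2 was 43.6 (40.4 to 46.9), 32.8 (30.03 to 35.7) and 51.9 CPM (44.2 to 60.5), and muscle Gli2 42.7 (38.2 to 47.5), 31.9 (27.1 to 37.2) and 44.2 CPM (39.8 to 49.0). YAP5SA was the low library in both gates, with ratios of 0.753 (0.671 to 0.844) and 0.747 (0.614 to 0.905). The ratios were 0.993 and 0.570 in thinned cells, and with the immune level subtracted the ratios were 0.890 and 0.885. Fibroblast Gli3 was 95.3 (90.6 to 100.2), 81.1 (76.7 to 85.6) and 132 CPM (119 to 145), and muscle Gli3 98.1 (91.3 to 105), 95.2 (86.8 to 104) and 126 CPM (118 to 134). YapKO was the high library, at 1.38 (1.24 to 1.54) and 1.28 times the control (1.17 to 1.41), and these became 1.05 and 1.19 with TMM factors. The muscle Gli3 ratio of YAP5SA was 0.970 (0.863 to 1.09), 1.03 with clusters in place of the gate and 1.17 with the immune level subtracted. In the epithelium Gli1, Gli2 and Gli3 were near the immune level in the control, at 0.929, 0.989 and 0.969 times it. Gli1 in YAP5SA (1.76, 1.04 to 3.11) and Gli2 in YapKO (1.68, 1.077 to 2.70) were above it.

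Hhip, whose product binds Hedgehog ligands at the cell surface, was higher in the muscle than in the fibroblast gate of each library. Its muscle-gate level was 35.0 CPM in the control (31.0 to 39.4), 19.0 CPM in YAP5SA (15.3 to 23.2) and 49.8 CPM in YapKO (45.1 to 54.9). The 3 intervals were apart, with YapKO highest. The ratios were 0.542 (0.424 to 0.687) and 1.42 (1.22 to 1.67), the latter 1.32 with TMM factors. Fibroblast Hhip, at 9.74, 4.11 and 11.2 CPM, was 1.13, 1.26 and 1.33 times the immune level, with intervals that included 1. Epithelial Hhip was 9.53, 1.40 and 4.76 CPM, none of them above the immune level (8.65, 3.25 and 8.40 CPM), and its ratio of 0.147 in YAP5SA (0.084 to 0.253) is between such levels. Muscle over fibroblast was 3.60 (2.95 to 4.40), 4.62 (3.33 to 6.44) and 4.45 (3.15 to 6.48). Gli1 had the reverse order, at 1.95, 2.61 and 1.95 times more in fibroblasts than in muscle. Within muscle, Hhip was highest in the subclusters with Npnt and Igfbp2 among their leading genes, at 74.1 CPM in the control and 76.6 CPM in YapKO, whose Ptch1 was also highest (80.9 and 91.9 CPM).

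**Figure D3:**
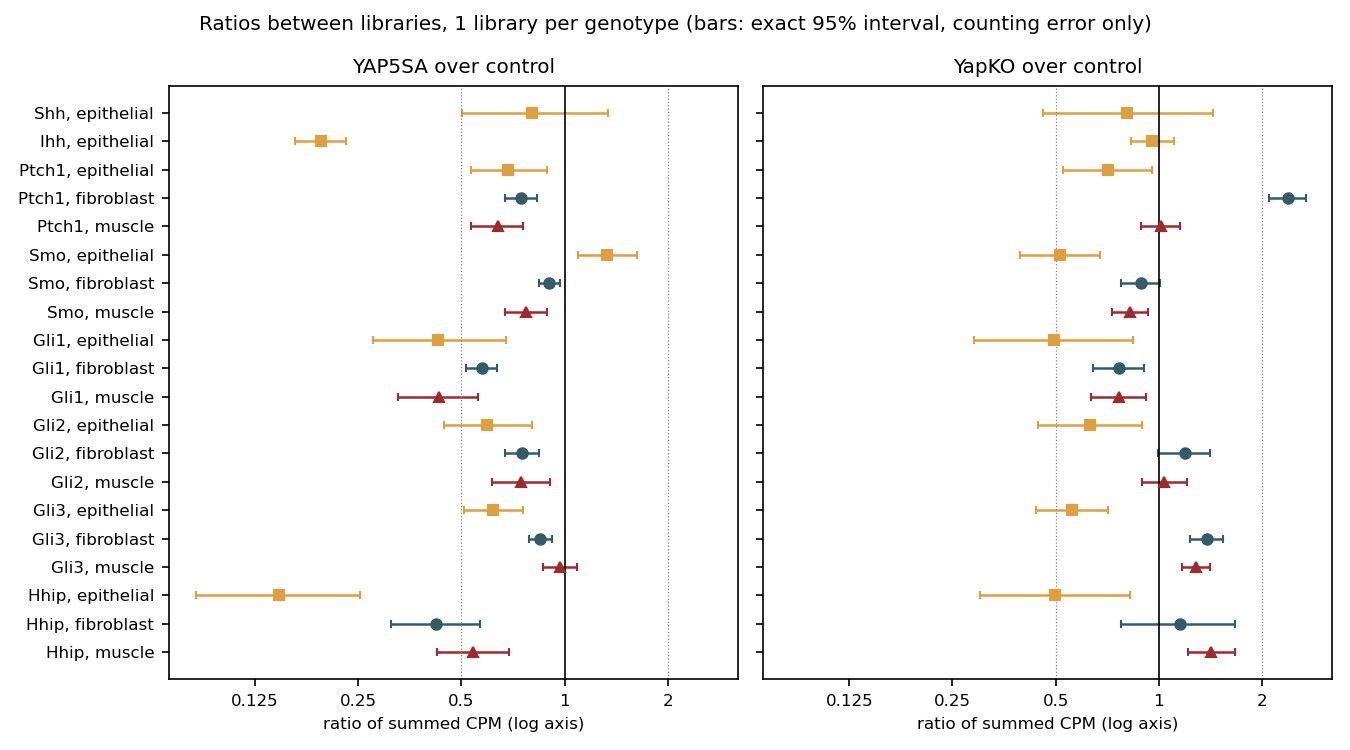
Ratios of summed CPM over the control library (x axis, log scale, dotted lines at 2-fold) for YAP5SA (left) and YapKO (right), with exact 95% intervals for counting error. Squares are the epithelial, circles the fibroblast and triangles the muscle gate, and Ihh stands at 0.194 in YAP5SA and Ptch1 at 2.38 in YapKO fibroblasts.

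Read against all genes, few members stood 2-fold apart. Among genes at 20 CPM or more in either library, the share at least 2-fold lower in YAP5SA was 8.56% in the epithelial, 1.97% in the fibroblast and 1.02% in the muscle gate, and the share at least 2-fold higher was 12.7%, 3.33% and 1.56%. For YapKO the lower shares were 3.49%, 1.5% and 2.08% and the higher shares 2.86%, 6.18% and 2.08%. Of the members at that level, 1 of 4 in the YAP5SA epithelium (Ihh), 0 of 5 in its fibroblasts and 1 of 6 in its muscle (Gli1) were 2-fold lower, and none was 2-fold higher. In YapKO, Ptch1 in fibroblasts was the only member that far apart, of 4, 5 and 6 members. In the YAP5SA stroma 5 of 5 fibroblast members and 6 of 6 muscle members were lower, muscle Gli3 with an interval that included 1. In the YapKO epithelium 4 of 4 were lower, Ihh with an interval that included 1. Over all genes at that level, 3525 of 7147, 3281 of 6742 and 3228 of 6847 were lower in these comparisons. YapKO epithelial Ptch1, Smo and Gli3 were 1.44, 0.863 and 1.19 times the immune level. Their immune-gate ratios over control were 0.435, 0.628 and 0.454. The immune-gate ratios of the 6 stromal members in YAP5SA were also all below 1, from 0.226 for Gli1 to 0.812 for Smo, and the part of free RNA in these directions was not tested beyond the subtraction given above. The median log2 ratio of the members at 20 CPM or more, with 5 CPM added, was -0.36 in YAP5SA fibroblasts and -0.48 in YAP5SA muscle. The medians over all genes at that level were 0.0044 and 0.0073. In YapKO fibroblasts and muscle the members had medians of 0.23 and 0.032, beside 0.16 and 0.057 over all genes.

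Other pathway genes were read from 3 lists chosen with earlier results of these data known. Over all genes at 20 CPM or more, 3622 of 7147 were higher in YAP5SA fibroblasts and 3461 of 6742 in YAP5SA muscle. In YapKO the counts were 4805 of 7719 in fibroblasts and 3920 of 7055 in muscle. Of 15 genes for other ligands, release and reception, 7 passed 20 CPM in the YAP5SA fibroblast comparison, 2 higher and 5 lower, and 7 in muscle, all lower, none 2-fold apart. Gpc3, a glypican that competes for ligand, was 379 CPM in YAP5SA fibroblasts against 727 CPM in the control, a ratio of 0.521 (0.505 to 0.538). Boc, a co-receptor, was higher at 90.7 against 74.2 CPM (1.22, 1.13 to 1.32), while Gas1, another co-receptor, was 103 against 162 CPM (0.634, 0.596 to 0.675). In YapKO fibroblasts 3 of 8 were higher, among them Gpc6 at 433 against 236 CPM (1.83, 1.72 to 1.95), and 5 lower. With TMM factors 2 were higher and Gpc6 had 1.40, and within clusters 0 and 1 it had 1.59. In the epithelial gate Gas1 was 47.4, 16.5 and 15.01 CPM in the control, YAP5SA and YapKO. The part of free RNA in these values was not tested.

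Genes between SMO and GLI, 14 in the list, differed little in the YAP5SA stroma. Of 10 at 20 CPM or more in fibroblasts, 2 were higher and 8 lower in YAP5SA with none 2-fold apart, and the list median was -0.060 on the log2 scale. With TMM factors 3 were higher. Sufu, the inhibitor that holds GLI proteins, was 31.6 against 35.5 CPM (0.892, 0.789 to 1.01). Evc, a ciliary partner of SMO, was 15.5 against 22.6 CPM (0.689, 0.584 to 0.812). In YapKO fibroblasts 5 of 10 were higher, beside 4805 of 7719 over all genes. The kinases Gsk3b (184 against 96.7 CPM) and Csnk1a1 (208 against 112 CPM) had ratios of 1.91 (1.73 to 2.10) and 1.86 (1.70 to 2.04). With TMM factors 3 of the 10 were higher, and these kinases had 1.45 and 1.42. Within clusters 0 and 1 they had 1.83 and 1.75. In the YAP5SA epithelium, of 6 genes, Kif3a, a ciliary motor subunit, was 35.8 against 11.1 CPM (3.22, 2.35 to 4.51), and Ift172, a ciliary transport subunit, was 10.6 against 37.3 CPM (0.283, 0.226 to 0.356).

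The third list held 16 genes known to respond to Hedgehog in gut mesenchyme, and they did not differ in 1 direction. In YAP5SA fibroblasts 4 of 11 were higher and 7 lower, with a median of -0.037, and 5 were higher with TMM factors. Osr1, a transcription factor of embryonic mesenchyme, was 63.6 against 125.5 CPM (0.507, 0.470 to 0.547), Barx1, a stomach mesenchyme factor, 262 against 453 CPM (0.578, 0.556 to 0.601), and Bmp4 119 against 201 CPM (0.592, 0.559 to 0.627). Nkx2-3, a transcription factor of gut and spleen mesenchyme, was higher at 24.5 against 0.924 CPM (26.5, 15.9 to 47.8), and Hsd11b1, an enzyme that regenerates active glucocorticoid, at 33.2 against 2.03 CPM (16.3, 11.5 to 24.0). In YAP5SA muscle 4 of 10 were higher and 6 lower, none 2-fold apart. In YapKO fibroblasts 7 of 10 were higher, beside 4805 of 7719 over all genes. Grem1 (30.7 against 14.4 CPM, 2.13, 1.66 to 2.71) and Myocd (91.9 against 35.1 CPM, 2.62, 2.26 to 3.02) were higher by over 2-fold. With TMM factors 4 of these 10 were higher, and Grem1 and Myocd had 1.63 and 1.996, the latter just under 2-fold. Within clusters 0 and 1, 6 of the 10 were higher, Grem1 had 1.95 (1.45 to 2.58) and Myocd, which codes for a coactivator of smooth muscle genes, 0.991 (0.760 to 1.27). In YapKO muscle 3 of 10 were higher (2 with TMM factors), and Bmp4 was 19.2 against 47.4 CPM (0.405, 0.334 to 0.489). The fibroblast markers in the muscle gate also differed, summing to 3884 CPM in YapKO against 10051.5 CPM in the control. The part of stray fibroblast RNA in the muscle Bmp4 value was not tested.

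**Figure D4:**
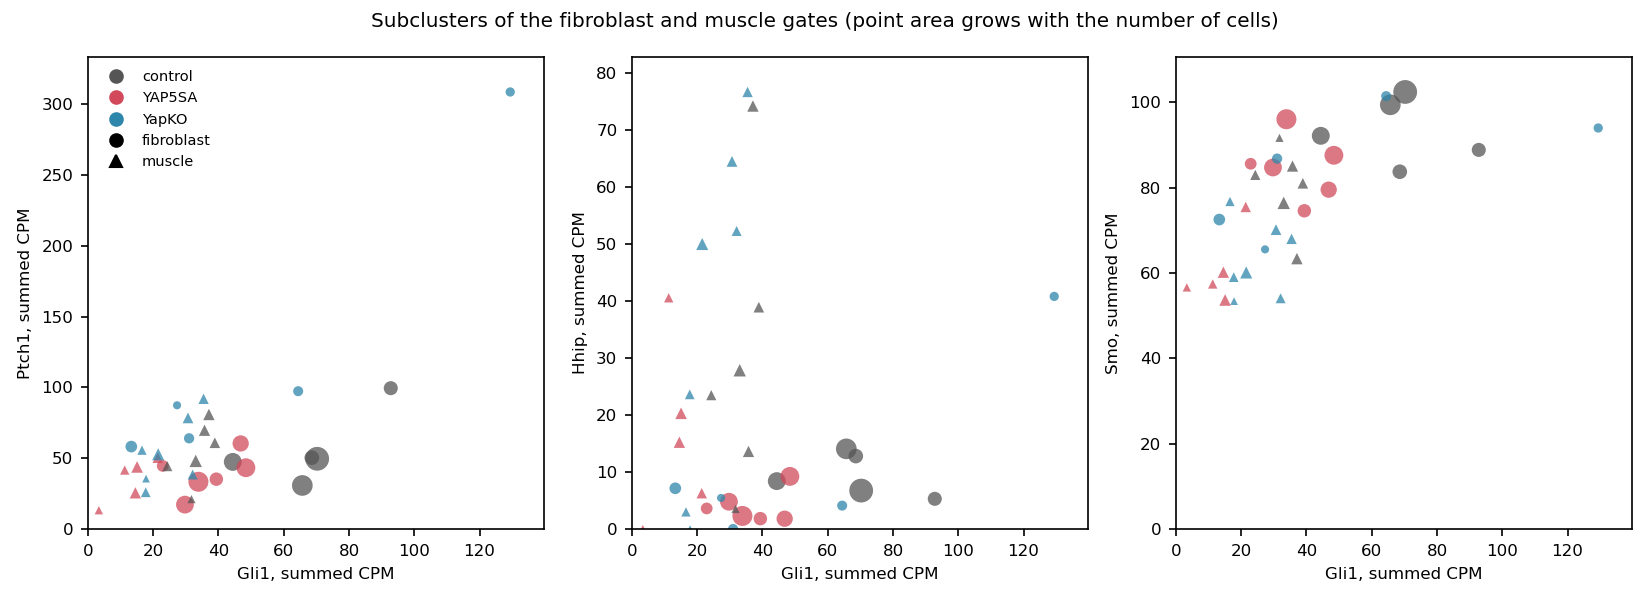
Gli1 (x axes) against Ptch1, Hhip and Smo (y axes), all as summed CPM, in subclusters of the fibroblast (circles) and muscle (triangles) gates of each library, with point area growing with cell number. The YapKO subcluster of 79 fibroblast-gate cells lies apart at 129 CPM of Gli1 and 308 CPM of Ptch1, and the Hhip values of the muscle subclusters reach 76.6 CPM.

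Cells with a Gli1 UMI carried more Ptch1 in both stromal gates and more Hhip in muscle. In the control, Ptch1 was 57.3 CPM in the 744 fibroblast-gate cells with a Gli1 UMI and 45.1 CPM in the 2034 without, a ratio of 1.27 (1.10 to 1.47). The ratio was 1.51 (1.26 to 1.81) in YAP5SA and 1.86 (1.498 to 2.29) in YapKO fibroblasts, and 1.71 (1.41 to 2.06), 1.72 (1.19 to 2.45) and 1.47 (1.21 to 1.78) in muscle. In the YapKO fibroblast gate the 79 cells described above, 15.4% of its cells, held 46.2% of the Gli1 and 47.7% of the Ptch1 UMIs. The part of this mixture of cells in the YapKO ratio was not tested. Hhip in muscle gave 1.72 (1.34 to 2.19), 3.17 (2.01 to 4.92) and 2.17 (1.77 to 2.65). Hhip in fibroblasts gave 1.24 (0.883 to 1.72), 1.70 (0.968 to 2.90) and 1.64 (0.771 to 3.38), all with intervals that included 1. Gli2 had 1.30 (1.11 to 1.51) in control fibroblasts and 1.36 (1.085 to 1.70) in control muscle, and 0.976 to 1.21 in the other libraries, with intervals that included 1. Smo and Gli3 had ratios between 0.874 and 1.09 over the same gates and libraries, with every interval including 1. These cells share a library and were deeper (medians of 6674 against 4558 UMIs in control fibroblasts), and the intervals count UMIs, not samples.

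**Figure D5:**
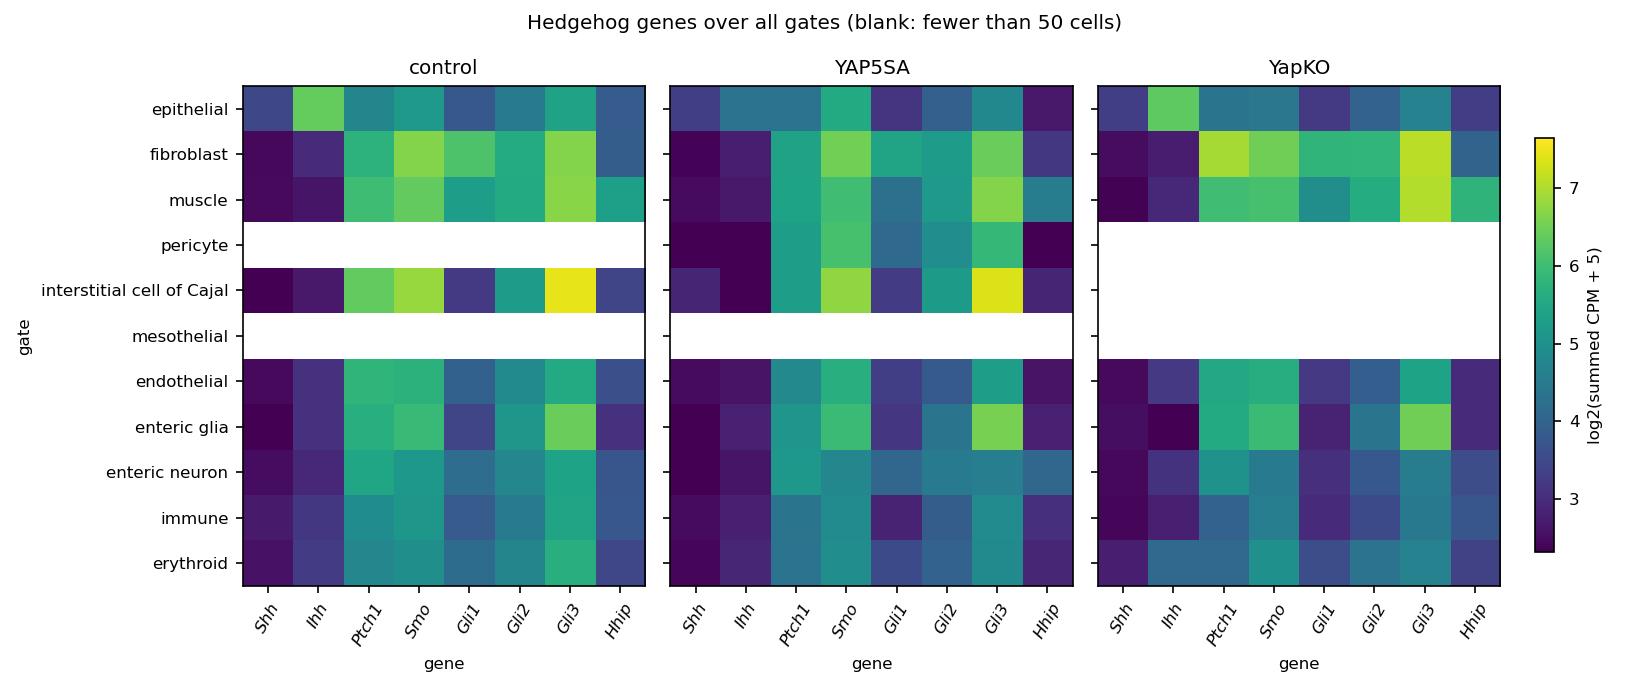
Colour gives log2(summed CPM + 5) of the 8 genes (columns) in the 11 gates (rows) of each library, blank below 50 cells. Ihh is bright only in the control and YapKO epithelium, and Gli3 and Smo are bright in fibroblasts, muscle and the interstitial cells of Cajal.

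Among the other gates, Gli3 and Smo were highest in interstitial cells of Cajal, the pacemaker cells of gut muscle, where Gli1 was low. The control gate of 117 such cells had 169 CPM of Gli3, 109 CPM of Smo, 77.0 CPM of Ptch1 and 4.36 CPM of Gli1, and the 81 cells of YAP5SA had 160, 104, 34.7 and 4.63 CPM. Enteric glia had 80.8, 88.4 and 85.1 CPM of Gli3 in the control, YAP5SA and YapKO, with 5.77, 3.93 and 2.15 CPM of Gli1. The immune gate had 9.40, 2.13 and 2.80 CPM of Gli1. Endothelial Ptch1 was 50.7, 23.5 and 41.4 CPM.

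Over the 27 gate and library sums with at least 50 cells, genes were ranked by Pearson's r with each member on log2(CPM + 5), as a description. The sums share libraries and free RNA. Nearest to Ihh were Spink4 (r = 0.980), Fermt1 (0.974) and Gpx2 (0.965), and nearest to Shh were Tmem54 (0.932), Hsd17b2 (0.930) and Psca (0.924). Gli1 was most like Agtr2 (0.895), Sfrp2 (0.882) and Or5m3b (0.865), and Ptch1 most like Cntln (0.879), Pkd1 (0.874) and Nfix (0.865). Smo ran with Efemp2 (0.946), Ccnd3 (0.941) and Scarf2 (0.938). Gli2 had Col6a3, a marker of the fibroblast gate (0.915), Islr (0.906) and Antxr1 (0.906) as neighbours, and Gli3 had Emilin1 (0.941), Antxr1 (0.924) and Fibin (0.923). Hhip was nearest to Kcnip1 (0.890), Wscd2 (0.858) and Ckm (0.858). Among the members, Shh and Ihh had r = 0.852, Smo and Gli3 0.914, Gli2 and Gli3 0.835, and Gli1 and Ptch1 0.563.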

How the data were processed

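The deposited matrices hold whole-number UMI counts per gene and cell, made by the authors with PISA 1.0, per the file headers, from droplet libraries of 3′ ends. STAR and GRCm39 are named in the submitters' processing notes. The deposited libraries held 7692, 9439 and 5739 cells with 48910624, 65843658 and 40857358 UMIs (control, YAP5SA, YapKO). Cells with at least 500 genes and at most 20% mitochondrial UMIs were kept. Scrublet called 0 doublets in each library and so had not worked, and the 6% of cells with the highest scores were removed (441, 517 and 309 cells). Median depth was 4885, 5231.5 and 4963.5 UMIs. Libraries shared 1388 to 2409 cell names a pair, 0 of them with equal UMI totals.

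Each of 11 classes was scored as the mean log2(1 + UMIs per 10000) of its markers. The gate was first written on raw scores, which free RNA dominated, leaving 150 control epithelial cells. The library's 10th percentile was therefore subtracted, with limits of 1 on the score and 0.5 on the lead over the next class, a change made from markers and cell numbers alone. Sums gave CPM with exact Poisson intervals and ratios with exact conditional intervals, shares had Clopper-Pearson intervals, all at 95%, and a count of 0 allows 3 counts. Ratio intervals were tested only on simulated Poisson sums, which hold no variation between cells or embryos, so the test says nothing of such variation. Subclusters came from clustering each gate within a library. Named genes were the 8 members, up to 2 highest and 2 lowest genes of each pathway list at 20 CPM or more, and the 3 most alike genes of each member. Outside that rule, Gas1 and Bmp4 in YAP5SA fibroblasts, Bmp4 and Malat1 in the YapKO fibroblast subset, and the leading genes of clusters were named after their values were seen. Members and lists were chosen with earlier results of these data known. Python 3.11.15, scanpy 1.11.5, scipy 1.17.1 and edgeR 4.0.16 (TMM factors only) were used.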

Additional observations from a re-analysis of the deposited data

Results flagged for a closer look

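4 members lay on opposite sides of the control in different gates of the same library, each with an interval that excluded 1, and none of these differences between gates was tested, since each genotype has 1 library. Smo in YAP5SA was 1.33 times the control in the epithelial gate, and 0.903 and 0.774 times in the fibroblast and muscle gates. Ptch1 in YapKO was 0.708 times the control in the epithelial gate and 2.38 times in the fibroblast gate (1.66 times among its cells of clusters 0 and 1). Gli3 in YapKO was 0.557 times in the epithelial gate, and 1.38 and 1.28 times in the fibroblast and muscle gates, which became 1.05 and 1.19 with TMM factors. Hhip in YapKO was 0.499 times in the epithelial gate and 1.42 times in the muscle gate. The immune gate, read as free RNA, had YapKO ratios of 0.435 for Ptch1, 0.454 for Gli3 and 0.971 for Hhip.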

How the results depend on the processing

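The 12 ratios of Shh, Ihh, Ptch1 and Gli1 had 142 alternative values, of which 121 lay inside the interval given above, 130 were on the same side of 1 and 1 crossed from an interval that excluded 1. The causes were not tested. That value was muscle Gli1 of YapKO with each cell thinned to 1500 UMIs, 1.28. Thinning also gave 0.444 for Shh and 0.713 for Ihh of YapKO, 0.763 for muscle Ptch1 of YapKO and 0.687 for muscle Gli1 of YAP5SA. The mean over cells gave 0.665 for Ihh of YapKO. For YapKO fibroblasts, Ptch1 and Gli1 were 1.67 and 0.521 with clusters in place of the gate, 1.81 and 0.583 with TMM factors, and 1.86 and 0.599 with median-of-ratios size factors. Doublets kept, a mitochondrial limit of 10% and gates 50% stricter or looser left every ratio inside its interval.

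Alternatives chosen after seeing the data were the raw-score gate (Ihh of YAP5SA 0.161), the immune level subtracted (fibroblast Ptch1 0.884 in YAP5SA and 4.42 in YapKO, muscle Ptch1 1.45 and Gli1 0.945 in YapKO), the YapKO fibroblast gate without 79 cells (Ptch1 1.52, Gli1 0.502), the fibroblast-gate cells of clusters 0 and 1 alone (Ptch1 1.66 and Gli1 0.541 in YapKO) and the epithelium without the shallow cluster 10, where every ratio lay inside its interval. The 79 cells were the subcluster with the highest Ptch1, so a lower Ptch1 ratio without them was fixed by the choice.

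Genes at least 2-fold apart numbered 1541, 379 and 174 for YAP5SA (epithelial, fibroblast, muscle) and 435, 593 and 294 for YapKO. A filter of 5 CPM gave 2951, 965, 700, 1341, 1630 and 871, and one of 50 CPM gave 822, 186, 58, 195, 254 and 131, in the same order. With TMM factors the share of higher genes among them went from 80.4% to 17.9% in YapKO fibroblasts and from 50% to 31.5% in YapKO muscle. No paired analysis was possible because each genotype has 1 library. Intervals cover counting error only, and UMI numbers of 23 to 84 limit what can be said of Shh.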
